A study of Mus musculus with 9 samples.

Results

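The genes described here build elastic fibres, the stretchable fibres of the extracellular matrix, and crosslink them. They are 10 of the 49671 gene rows of a count table from sorted mouse skin cells, chosen by symbol: Eln, Fbn1, Mfap2, Mfap4, Mfap5, Fbln2, Fbln5, Efemp2, Lox and Loxl1. The samples were 5 Flg wt/wt and 4 Flg ko/ko mouse libraries. Flg encodes filaggrin, a protein of the cornified layer, and the study asked how its deficiency alters keratinocyte gene expression. All libraries were made from cells sorted as CD45-negative, which lack the pan-leukocyte surface protein, and CD49f-positive, which carry the integrin alpha-6 chain of basal keratinocytes. Beyond the Flg genotype the labels give no strain, age, sex or treatment. Each library has its own identifier in its title and is taken here as 1 animal; the labels do not say so, and if it were otherwise the p-values would measure technical spread.

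Elastic fibres consist of a core of crosslinked elastin laid down on a scaffold of fibrillin microfibrils. Fibulins link elastin to the scaffold, and lysyl oxidases, which are copper enzymes, crosslink elastin and collagen through lysine side chains. In skin these fibres lie in the dermis, and dermal fibroblasts are a main source of their components.

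Library totals ran from 15601859 to 23200440 counts. Values are CPM, counts scaled to a common library size, with sizes adjusted by TMM, which lines up the bulk of genes between libraries. Reads on Flg numbered 0, 0, 6, 2 and 4 across wt/wt replicates 1 to 5, and 2, 0, 0 and 4 across ko/ko replicates 1 to 4, too few to check the genotype labels. The labels call the cells epidermal, but 10 fibroblast markers, among them Dcn and Col1a1, summed to 14966 to 35916 CPM, while 10 basal keratinocyte markers, among them Krt14 and Itga6, summed to 1960 to 3988 CPM. All 10 fibroblast markers and all 10 keratinocyte markers were detected in every library. Over the 9 libraries Dcn ran from 10868 to 21870 CPM, Col1a1 from 315 to 2359, Pdgfra from 36.2 to 133, Krt14 from 858 to 1834 and Krt5 from 139 to 280 CPM. Itga6, the gene of the integrin chain used for sorting, ran from 43.4 to 66.3 CPM in wt/wt and from 64.0 to 97.1 CPM in ko/ko. Its log2 fold change of ko/ko over wt/wt was 0.64 (SE 0.17, edgeR adjusted p = 0.157).

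Levels of the elastic fibre genes varied widely between libraries of the same genotype. Replicate 1 of ko/ko and replicates 1 and 2 of wt/wt stood apart. They were the lowest 3 of the 9 libraries for 7 of the 10 genes, against 7.11% of 18435 tested genes. The same held for 8 of 21 other genes of elastic fibre assembly and 3 of 6 tested genes for elastin-degrading enzymes. These 3 libraries were singled out after their values were seen, so the shares are not independent of that choice. Summed over the 10 genes the level was 1090, 922, 2413, 2085 and 1945 CPM in wt/wt replicates 1 to 5 and 983, 2265, 1502 and 2189 CPM in ko/ko replicates 1 to 4. The share of counts on mitochondrial genes was 6.30% in replicate 1 of ko/ko, and 5.67% and 7.55% in replicates 1 and 2 of wt/wt; the remaining 6 libraries had 1.81% to 6.08%. Replicate 1 of ko/ko also had the lowest total. Genes with at least 1 count numbered 31157 in replicate 1 of ko/ko, and 30526 and 27671 in replicates 1 and 2 of wt/wt. The remaining 6 libraries had 25865 to 33219. Wt/wt replicate 4, with a mitochondrial share of 6.08%, had a summed level of 2085 CPM. The part of mitochondrial share, depth or number of genes detected in the pattern was not tested. The labels name no batch, although these 3 libraries also carry the 3 lowest identifiers of the 9 titles. What those identifiers count is not given in the sources used here.

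Sequence around the start site is shown for Fbn1 and Fbln2, since both were low in these 3 libraries while their genotype values had opposite signs. The RefSeq table used here, on GRCm38.p6, has an entry for 5 of the 10 genes. Each window holds 250 bases before the start and 50 after it, 5′ to 3′ on the gene's strand, and capitals mark matches to the motifs searched. The Fbn1 window is chr2:125506389-125506688, minus strand, and the Fbln2 window, the first listed for that gene, is chr6:91212514-91212813, plus strand. Both windows lie inside the span of the gene in the count table, which starts at 125507993 for Fbn1 and at 91212455 for Fbln2. The starts used here are therefore not the outermost annotated ones.

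Fbn1: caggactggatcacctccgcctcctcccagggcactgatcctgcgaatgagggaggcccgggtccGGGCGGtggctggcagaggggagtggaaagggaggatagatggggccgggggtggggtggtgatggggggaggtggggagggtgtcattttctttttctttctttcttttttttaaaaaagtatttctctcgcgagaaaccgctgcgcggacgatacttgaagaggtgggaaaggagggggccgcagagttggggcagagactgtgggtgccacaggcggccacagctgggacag

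Fbln2: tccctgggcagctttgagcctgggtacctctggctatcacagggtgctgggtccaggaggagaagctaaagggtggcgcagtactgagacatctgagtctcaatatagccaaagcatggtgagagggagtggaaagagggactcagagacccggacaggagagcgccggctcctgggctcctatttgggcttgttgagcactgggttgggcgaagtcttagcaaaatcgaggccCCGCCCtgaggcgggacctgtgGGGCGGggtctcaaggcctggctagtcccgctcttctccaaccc

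Both strands were searched for the GC box GGGCGG, the TATA box TATAAA, the AP-1 motif TGANTCA, the E-box CACGTG and the SMAD palindrome GTCTAGAC. Fbn1 held 1 GC box and Fbln2 held 2, and 35.7% of all 32851 windows in the table held at least 1. Neither window held these letters of the other motifs, which occurred in 13.6%, 7.81%, 7.15% and 0.213% of windows. G and C made up 60.3% of the bases in both windows, against a median of 52.7%.

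Eln, which encodes tropoelastin, the precursor of the elastic core, did not differ between genotypes past the threshold. Eln had 279, 184, 496, 390 and 378 CPM in wt/wt replicates 1 to 5 and 191, 312, 245 and 428 CPM in ko/ko replicates 1 to 4. The genotypes overlapped, and the lowest library was wt/wt replicate 2. The mean was 345 ± 118 CPM over the wt/wt libraries (SD, n = 5) and 294 ± 102 CPM over the ko/ko libraries (SD, n = 4). The log2 fold change of ko/ko over wt/wt was -0.23 (SE 0.29, edgeR adjusted p = 0.741). Eln (ENSMUSG00000029675) lies on mm10 chromosome 5 from 134702593 to 134747323, minus strand, and shares 267 exonic bases with Gm30003 on the opposite strand, which had 58 counts summed over the 9 libraries.

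Fbn1, Mfap2, Mfap4 and Mfap5, the microfibril scaffold genes among the 10, all had positive values, and none of them passed. Fbn2, a fibrillin gene outside the 10, is given below with the other assembly genes. Fbn1 encodes fibrillin-1, the backbone of microfibrils and the gene mutated in Marfan syndrome. It had 174, 153, 341, 342 and 249 CPM in wt/wt replicates 1 to 5 and 204, 439, 320 and 435 CPM in ko/ko replicates 1 to 4. Both highest values were in ko/ko libraries, and the groups overlapped. Means were 252 ± 89.2 CPM (SD, n = 5) and 349 ± 112 CPM (SD, n = 4), and the log2 fold change was 0.47 (SE 0.29, edgeR adjusted p = 0.463). Fbn1 (ENSMUSG00000027204) spans mm10 chromosome 2 from 125300594 to 125507993, minus strand. It shares 2442 exonic bases with Gm9913 on the opposite strand, which had 2 counts summed over all libraries.

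Mfap5 encodes MAGP-2, a microfibril-associated glycoprotein, and had the widest spread of the 10 genes. It had 23.8, 27.3, 138, 111 and 93.2 CPM in wt/wt replicates 1 to 5 and 97.5, 194, 78.3 and 140 CPM in ko/ko replicates 1 to 4. Wt/wt replicates 1 and 2 lay below every other library, while ko/ko replicate 1, low for most of the genes, lay inside the range of the rest. The highest library was 8.14 times the lowest, and the log2 fold change was 0.70 (SE 0.49, edgeR adjusted p = 0.517). Mfap4 encodes a microfibril-associated protein that binds elastin and integrins. It had 33.8, 26.2, 140, 126 and 125 CPM in wt/wt replicates 1 to 5 and 74.2, 191, 112 and 124 CPM in ko/ko replicates 1 to 4. The same wt/wt libraries were lowest, and the log2 fold change was 0.47 (SE 0.48, edgeR adjusted p = 0.667). Mfap4 shares 89 exonic bases with Mapk7 on the opposite strand, which had 3262 counts against 19620 for Mfap4, so part of its reads is uncertain. Mfap5 (ENSMUSG00000030116) lies on mm10 chromosome 6 from 122505845 to 122529290 and Mfap4 (ENSMUSG00000042436) on chromosome 11 from 61485431 to 61488900, both on the plus strand. Mfap2, which encodes MAGP-1, ranged from 63.7 to 132 CPM in wt/wt and from 67.9 to 156 CPM in ko/ko, and the log2 fold change was 0.21 (SE 0.29, edgeR adjusted p = 0.770).

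The fibulin genes had negative values, and none passed with all 9 libraries. Fbln2 encodes fibulin-2, which binds both elastin and basement membrane proteins. It had 76.8, 95.5, 289, 255 and 261 CPM in wt/wt replicates 1 to 5 and 75.3, 208, 150 and 199 CPM in ko/ko replicates 1 to 4. Wt/wt replicates 3 to 5 lay above all ko/ko libraries, and wt/wt replicates 1 and 2 lay in the low part of the ko/ko range. Fbln2 (ENSMUSG00000064080) lies on mm10 chromosome 6 from 91212455 to 91272540, plus strand. The log2 fold change was -0.31 (SE 0.42, edgeR adjusted p = 0.765). Fbln5, fibulin-5, which tethers elastin to cells and microfibrils and without which mice have loose skin, averaged 196 ± 67.0 CPM over the wt/wt libraries (SD, n = 5) and 186 ± 68.8 CPM over the ko/ko libraries (SD, n = 4). Efemp2, fibulin-4, which brings lysyl oxidase to elastin, had the narrowest spread of the 10 genes, 56.7 to 111 CPM in wt/wt and 58.3 to 104 CPM in ko/ko. Their log2 fold changes were -0.08 (SE 0.31) for Fbln5, which was 0.03 when scaled by library totals alone, and -0.17 (SE 0.22) for Efemp2, with edgeR adjusted p of 0.926 and 0.746.

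Neither crosslinking gene passed. Lox encodes lysyl oxidase, and had 210, 175, 458, 368 and 301 CPM in wt/wt replicates 1 to 5 and 103, 401, 232 and 301 CPM in ko/ko replicates 1 to 4. The lowest library was ko/ko replicate 1, and the groups overlapped. The log2 fold change was -0.22 (SE 0.37, edgeR adjusted p = 0.810). Without ko/ko replicate 1 it was 0.04, so the sign of Lox rested on that library. Loxl1 encodes a lysyl oxidase relative directed at elastic fibres, and had 10.1, 11.4, 58.7, 59.5 and 57.2 CPM in wt/wt replicates 1 to 5 and 14.5, 49.2, 33.8 and 56.3 CPM in ko/ko replicates 1 to 4. Each genotype held both low and high libraries, and the log2 fold change was -0.04 (SE 0.57, edgeR adjusted p = 0.982), turning to 0.09 with library totals alone.

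**Figure D1:**
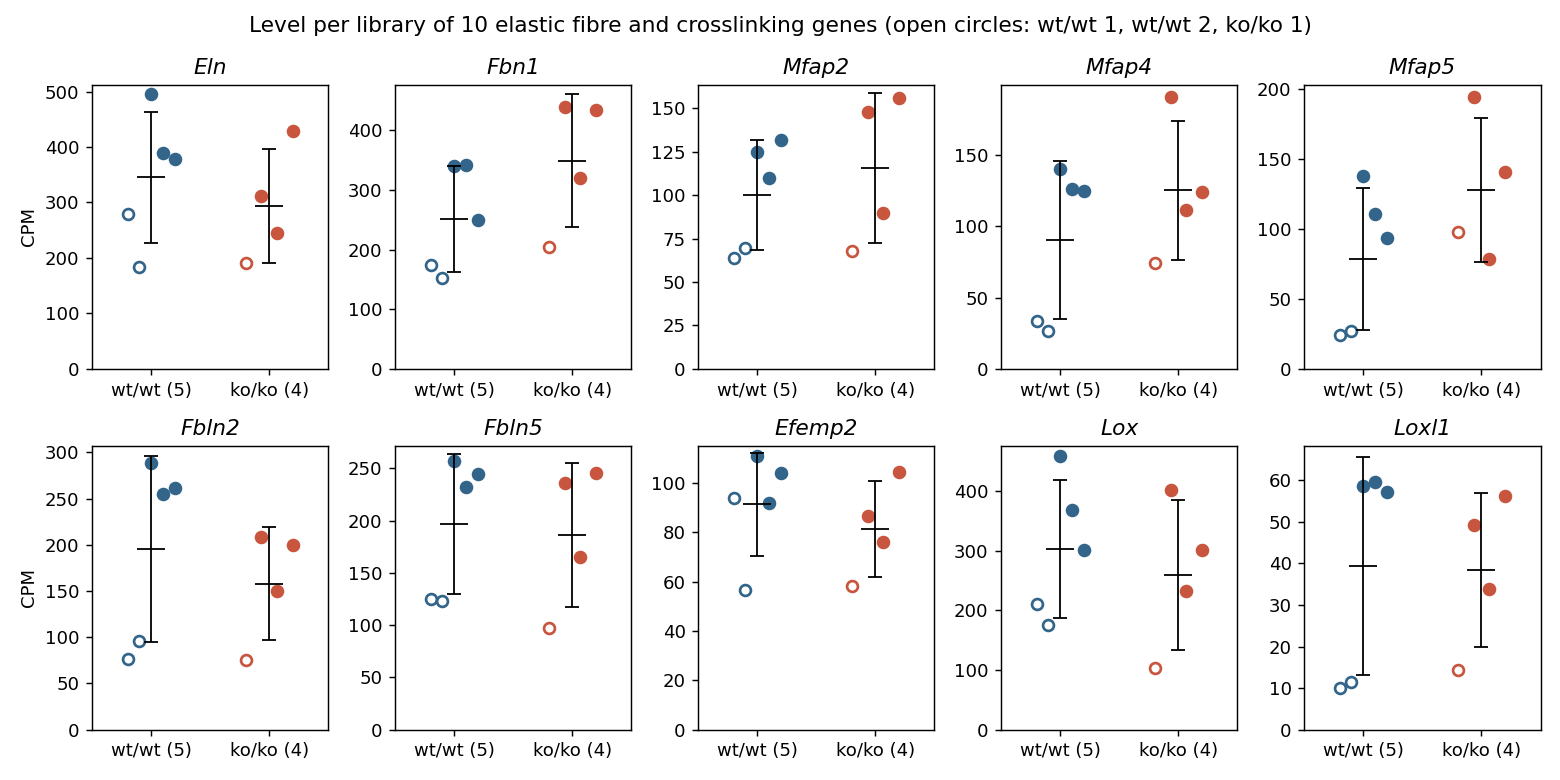
CPM (vertical axes, each from 0) of the 10 genes in 5 wt/wt (blue) and 4 ko/ko (red) libraries, 1 circle per library, with mean and SD as bars; open circles are replicate 1 of ko/ko and replicates 1 and 2 of wt/wt. The genotypes overlap in every panel, and the open circles lie lowest in 7 of the 10 panels, from 10.1 to 14.5 CPM for Loxl1. Mfap5 in ko/ko replicate 1 (97.5 CPM), and Eln (279 CPM) and Efemp2 (94.0 CPM) in wt/wt replicate 1, lie among the other libraries.

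Across the 10 genes, edgeR's quasi-likelihood test called 0, against 0.00542% of all 18435 genes tested. An unadjusted p under 0.05 was met by 0 of 10, against 15.3% of all genes, and DESeq2 and limma voom with quality weights also called 0 of 10, against 3.63% and 9.77%. All 10 passed the filter on low counts. The groups overlapped for all 10 genes, while 6.25% of tested genes had no overlap. The median log2 fold change was -0.06 over the 10 genes, 4 positive and 6 negative, against -0.03 over all genes tested. Standard errors ran from 0.22 to 0.57, and log2 differences of that size were not detectable here.

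Per length of exon the genes kept a partial order across libraries. Levels of different genes are compared here as RPKM, which is CPM per kilobase of the exon length in the deposited table. Mfap2 was highest in 9 of 9 libraries, at 88.3 ± 29.4 RPKM (SD, n = 9), above 96.4% of tested genes. Loxl1 was lowest in 9 of 9, at 11.8 ± 6.58 RPKM (SD, n = 9). Between them came Lox at 58.9, Mfap4 at 55.0, Eln at 39.8, Fbln5 at 32.9, Efemp2 at 32.8, Fbln2 at 28.1, Mfap5 at 27.9 and Fbn1 at 24.3 RPKM. Lox lay above Mfap4 in 4 of 9 libraries, Fbln5 above Efemp2 in 5 and Fbln2 above Mfap5 in 6, so these neighbours did not differ beyond their spread. Eln lay above Fbln5 in 8 of 9 libraries. The 2 lysyl oxidase genes differed in level in every library, with Lox from 21.5 to 95.2 RPKM and Loxl1 from 3.07 to 18.0 RPKM. Exon length here counts every annotated exon, so RPKM understates genes whose longer forms are little used.

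**Figure D2:**
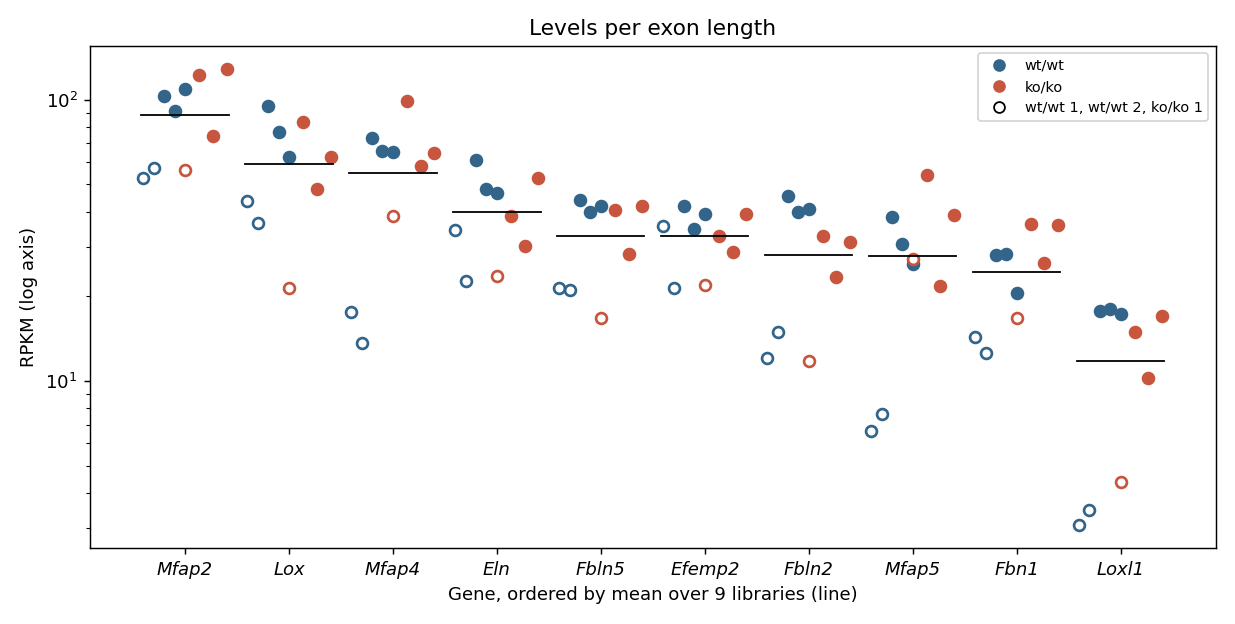
RPKM (log axis) of each gene in 5 wt/wt (blue) and 4 ko/ko (red) libraries, ordered by the mean over all libraries (black line); open circles are replicate 1 of ko/ko and replicates 1 and 2 of wt/wt. Mfap2 is at the top with a mean of 88.3 and Loxl1 at the bottom with 11.8.

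The summed level of the fibroblast markers moved with that of the elastic fibre genes. The 10 fibroblast markers, none of them among the elastic fibre genes, summed to 16274, 14966, 35179, 30508 and 29919 CPM in wt/wt replicates 1 to 5 and 18803, 35916, 21490 and 33410 CPM in ko/ko replicates 1 to 4. The 4 lowest libraries were the same for both sums: replicates 1 and 3 of ko/ko and replicates 1 and 2 of wt/wt. Dcn, a matrix gene, made up most of the marker sum in each library, with 12270 CPM in wt/wt replicate 1. Pdgfra did not follow the sum throughout. It was lowest in wt/wt replicate 2 (36.2 CPM), but had 76.1 CPM in wt/wt replicate 1 against 77.7 in wt/wt replicate 4. In ko/ko it had 83.4 CPM in replicate 1 against 81.8 in replicate 3. The summed level of the elastic fibre genes varied 2.62-fold between libraries, and expressed per 1000 CPM of fibroblast markers it varied 1.34-fold, from 52.3 in ko/ko replicate 1 to 69.9 in ko/ko replicate 3. Fewer fibroblasts and less of this RNA per fibroblast cannot be told apart in such bulk libraries. Basal keratinocyte markers were highest, at 3988 CPM, in wt/wt replicate 2, and mural and smooth muscle markers were lowest, at 183 and 186 CPM, in wt/wt replicates 2 and 1. Leukocyte markers ran from 4.07 to 31.2 CPM in wt/wt and from 4.70 to 215 CPM in ko/ko. Among libraries with few leukocyte markers, the summed elastic fibre genes were 922 CPM in wt/wt replicate 2 (6.05 CPM of these markers) and 2413 CPM in wt/wt replicate 3 (7.03 CPM). Among those with many, they were 983 CPM in ko/ko replicate 1 (174 CPM of these markers) and 2265 CPM in ko/ko replicate 2 (215 CPM).

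Markers of fibroblast subsets and of other cell types were present below the sums of the fibroblast and basal keratinocyte markers. Papillary and reticular fibroblast markers summed to 40.3 and 54.8 CPM in wt/wt replicates 1 and 2 and to 148 to 271 CPM in the other libraries. Schwann cell and melanocyte markers were also lowest in those 2 libraries, at 265 and 286 CPM against 335 to 933 CPM. Lymphatic endothelial markers were 310 to 633 CPM in wt/wt and 177 to 263 CPM in ko/ko. Blood endothelial markers were 270 to 468 CPM, suprabasal keratinocyte markers 129 to 237 CPM and adipocyte markers 60.6 to 234 CPM over all libraries. Of single markers, the smooth muscle gene Acta2 ran from 21.5 to 73.7 CPM and Myh11 from 1.54 to 8.32 CPM, the endothelial gene Pecam1 from 71.3 to 110 CPM and Ptprc, which encodes CD45, from 0.0508 to 7.17 CPM. The part of these subsets and cell types in the levels of the elastic fibre genes was not tested.

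The genes did not follow the fibroblast markers equally. Mfap2 per 1000 CPM of fibroblast markers varied 1.31-fold between libraries, from 3.55 to 4.67. Fbln5 varied 1.58-fold and Fbn1 1.79-fold. Mfap5 varied 3.69-fold, Loxl1 3.14-fold and Mfap4 3.03-fold, and each was lowest in wt/wt replicates 1 and 2. Lox lay outside the common range in 1 library, with 5.49 for ko/ko replicate 1, below the 8.99 to 13.0 of the remaining 8 libraries.

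**Figure D3:**
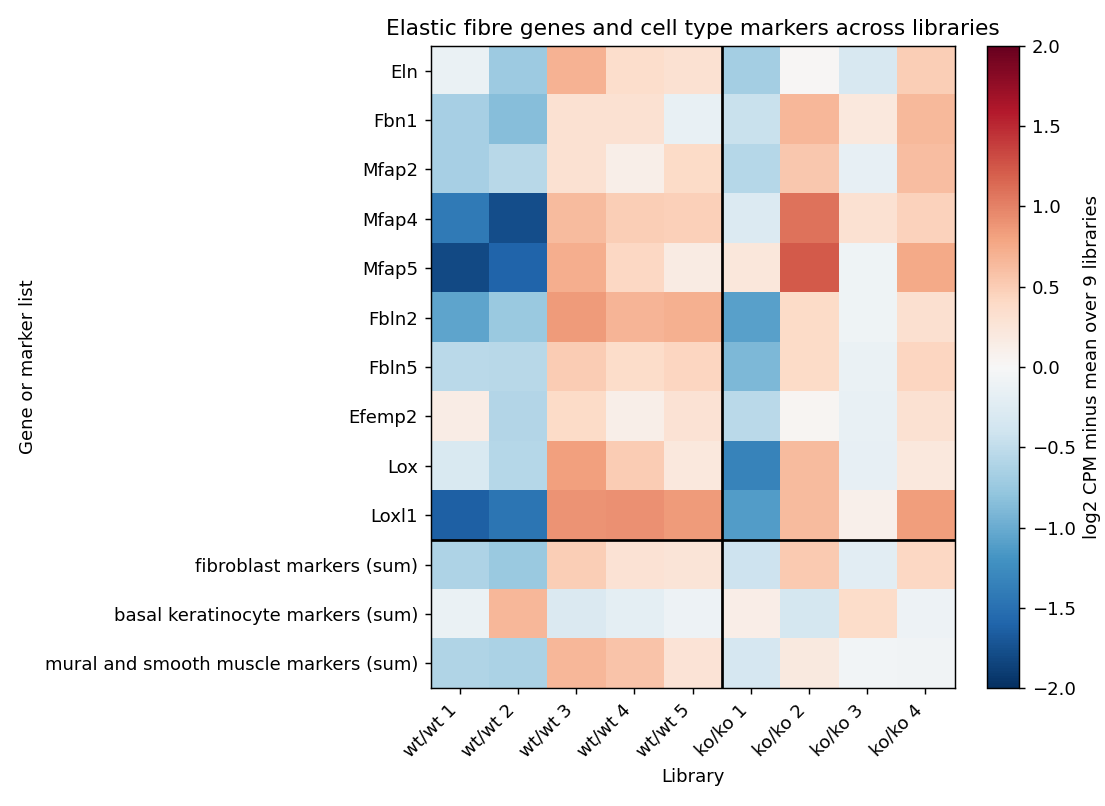
Log2 CPM minus its mean over 9 libraries (colour, from -2 to 2) for the 10 genes and, below the line, for the summed CPM of 3 marker lists; columns are libraries, wt/wt left and ko/ko right. Replicate 1 of ko/ko and replicates 1 and 2 of wt/wt are blue for most genes and for the fibroblast markers, with Mfap5 in ko/ko replicate 1 and Efemp2 in wt/wt replicate 1 as exceptions.

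With the summed fibroblast markers as a covariate in the edgeR fit, 1 of the 10 genes was called. Mfap5 was called higher in ko/ko, and the log2 fold change was 0.72 (SE 0.19, edgeR adjusted p = 0.0456), against 5.22% of all genes called higher in that fit. An unadjusted p under 0.05 was met by 6 of the 10 genes, against 26.4% of all genes. Positive among these were Mfap5, Mfap4 (0.49, SE 0.19) and Fbn1 (0.35, SE 0.13), and negative were Lox (-0.42, SE 0.19), Fbln2 (-0.40, SE 0.17) and Eln (-0.34, SE 0.14), with edgeR adjusted p from 0.111 to 0.183 for the 5 other than Mfap5. The scaffold gene Mfap2 had 0.05 (SE 0.13, edgeR adjusted p = 0.824) in that fit. The covariate comes from these same libraries, and its part in the result was not tested.

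Without replicate 1 of ko/ko and replicates 1 and 2 of wt/wt, left out after their values were seen, Mfap5 was not called (0.28, SE 0.28, edgeR adjusted p = 0.543). Fbln2 was then called lower in ko/ko, and the log2 fold change was -0.52 (SE 0.15, edgeR adjusted p = 0.0443), from 289, 255 and 261 CPM in the 3 wt/wt libraries against 208, 150 and 199 CPM in the 3 ko/ko libraries. In that fit 5.02% of all genes were called lower. The 3 libraries left out were the lowest 3 for Fbln2 itself, at 75.3 to 95.5 CPM, so the call is not independent of that choice. The other 8 genes were not called in either fit.

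**Figure D4:**
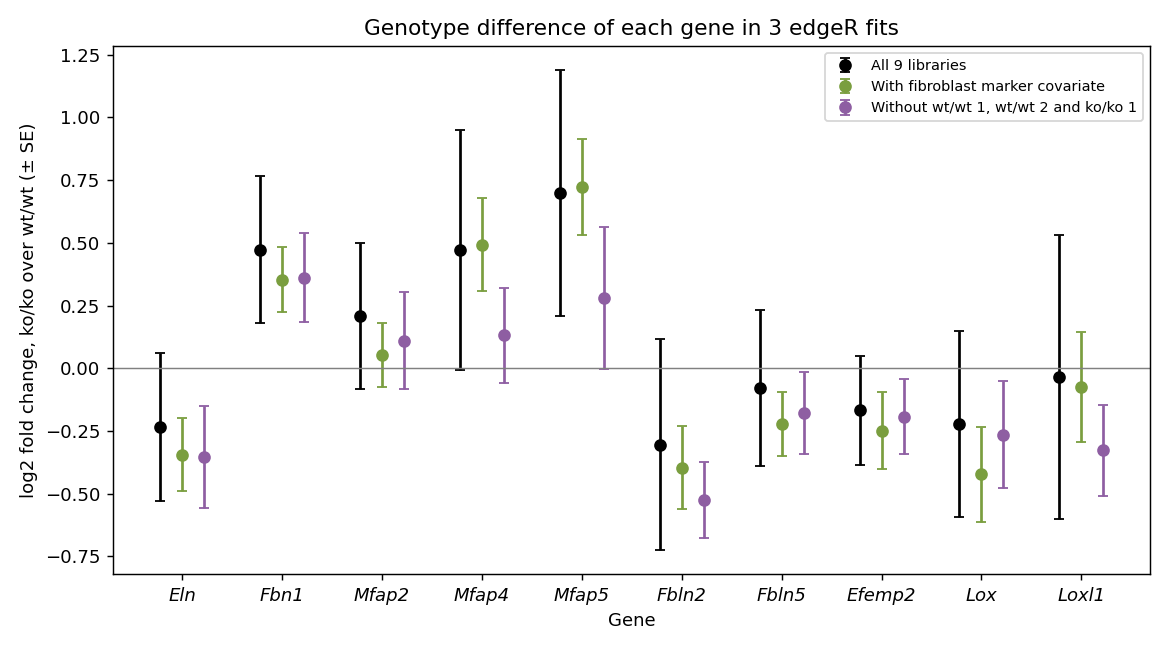
Log2 fold change of ko/ko over wt/wt with its SE (bars) for the 10 genes in 3 edgeR fits: all 9 libraries (black), with the fibroblast marker covariate (green), and without replicate 1 of ko/ko and replicates 1 and 2 of wt/wt (purple). The scaffold genes Fbn1, Mfap2, Mfap4 and Mfap5 are above 0 in all 3 fits and the other 6 genes below it; only Mfap5 (0.72, green) and Fbln2 (-0.52, purple) were called.

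Ratios between the genes, which need no scaling of library size but keep any trend on exon length, were compared for all 45 pairs as a description. For 7 pairs, or 15.6%, the ratios did not overlap between genotypes, against 6.31% of all pairs of tested genes; pairs that share a gene are not independent, and no test was made. Every one of the 7 sets Fbn1, Mfap4 or Mfap5 of the scaffold against Eln, Lox, Fbln2 or Fbln5. The former had positive and the latter negative log2 fold changes, so the make-up of the pairs is not separate from those signs. Eln relative to Fbn1 was 1.61, 1.20, 1.46, 1.14 and 1.52 in wt/wt replicates 1 to 5 and 0.939, 0.711, 0.764 and 0.985 in ko/ko replicates 1 to 4. Every wt/wt ratio lay above every ko/ko ratio, including those of the libraries that stood apart. These are ratios of CPM, not corrected for length. In the edgeR fit with the exon length trend removed, the log2 fold change was 0.18 (SE 0.35) for Fbn1 and -0.39 (SE 0.32) for Eln. Without that removal they were 0.47 and -0.23. Fbn1 relative to Lox was 0.744 to 0.929 in wt/wt and 1.09 to 1.97 in ko/ko. Fbn1 relative to Fbln5 was 1.02 to 1.47 in wt/wt and 1.77 to 2.09 in ko/ko.

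Mfap4 relative to Fbln2 was 0.275 to 0.496 in wt/wt and 0.623 to 0.986 in ko/ko. Mfap5 relative to Fbln2 was 0.286 to 0.477 and 0.523 to 1.30, and relative to Lox it was 0.114 to 0.310 and 0.337 to 0.945. Eln relative to Mfap5 was 3.52 to 11.7 in wt/wt and 1.61 to 3.12 in ko/ko. Mfap2, Efemp2 and Loxl1 were in none of the 7 pairs.

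**Figure D5:**
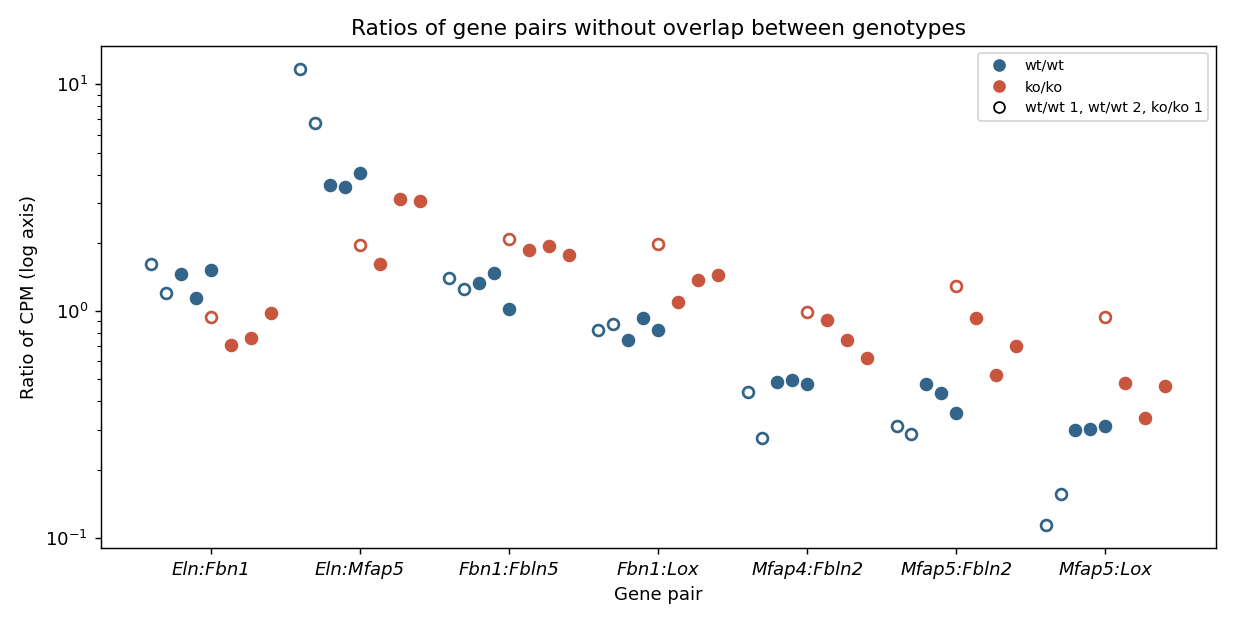
Ratio of CPM (log axis) for the 7 of 45 gene pairs whose values do not overlap between 5 wt/wt (blue) and 4 ko/ko (red) libraries; open circles are replicate 1 of ko/ko and replicates 1 and 2 of wt/wt. Eln:Fbn1 lies from 1.14 to 1.61 in wt/wt and from 0.711 to 0.985 in ko/ko.

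Of 21 other genes of elastic fibre assembly, 0 were called by edgeR over all genes and 3 had an unadjusted p under 0.05, against 15.3% of all genes, with 9 positive and 12 negative values and a median of -0.02. Loxl4, another lysyl oxidase relative, was 237, 123, 174, 147 and 120 CPM in wt/wt replicates 1 to 5 and 82.9, 87.6, 99.4 and 102 CPM in ko/ko replicates 1 to 4. All wt/wt libraries lay above all ko/ko libraries, and 6.25% of tested genes had no overlap. The log2 fold change was -0.79 (SE 0.21, edgeR adjusted p = 0.154). DESeq2 called Loxl4 lower (adjusted p = 0.0193), as did weighted voom (0.0242), against 3.63% and 9.77% of all genes called in either direction. EdgeR called it lower with the fibroblast covariate (0.0428), as for 312 of 18435 genes, and without the 3 libraries (0.0282), as for 5.02%. With library totals alone edgeR did not call it (adjusted p = 0.187). Adamtsl2, a microfibril-binding glycoprotein, was 1.06 to 2.34 CPM in wt/wt and 2.49 to 4.10 CPM in ko/ko (0.75, SE 0.33, edgeR adjusted p = 0.309). Adamts10, a fibrillin-binding protease, had -0.44 (SE 0.17, edgeR adjusted p = 0.272).

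Efemp1, fibulin-3, did not pass (log2 fold change 0.93, SE 0.46, edgeR adjusted p = 0.365). With the fibroblast covariate edgeR called it higher (0.74, SE 0.13, adjusted p = 0.0168), against 5.22% of all genes called higher. It was not called by DESeq2 (adjusted p = 0.234), by weighted voom (0.378) or by edgeR without the 3 libraries (0.68, SE 0.35, adjusted p = 0.224). Emilin1, a glycoprotein at the interface of elastin and microfibrils, had -0.50 (SE 0.26), Thsd4, which binds fibrillin-1, had -0.35 (SE 0.22), Loxl3, another lysyl oxidase relative, had -0.28 (SE 0.25) and Ltbp4, which binds latent TGF-beta and fibulin-5, had -0.20 (SE 0.18). None of these 4 passed edgeR's test, with adjusted p from 0.390 to 0.630. Fbn2, another fibrillin gene, had a log2 fold change of -0.02 (SE 0.26) in DESeq2, which did not call it. In edgeR it was -0.11 (SE 0.22) with the fibroblast covariate and 0.17 (SE 0.20) without the 3 libraries, also not called.

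Of 10 genes for elastin-degrading enzymes, 6 were expressed enough to be tested, and edgeR called 0, with 2, Mmp14 and Ctss, at an unadjusted p under 0.05, against 15.3% of all genes. The most abundant were Mmp2, a gelatinase, at 1465 ± 645 CPM over the wt/wt libraries (SD, n = 5) and 1428 ± 474 CPM over the ko/ko libraries (SD, n = 4), Ctsl at 703 ± 240 and 576 ± 115 CPM, and Ctsk at 477 ± 226 and 415 ± 162 CPM; the last 2 encode cathepsins. These 3 were lowest in replicate 1 of ko/ko and replicates 1 and 2 of wt/wt. Ctss, a cathepsin of antigen-presenting cells, was 17.2, 18.0 and 10.1 CPM in ko/ko replicates 1 to 3, 0.354 CPM in ko/ko replicate 4 and 0.551 to 3.51 CPM in wt/wt. Leukocyte markers were 174, 215 and 89.8 CPM in those 3 ko/ko libraries, and 4.70 CPM in ko/ko replicate 4.

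Among 9740 other genes with a mean of at least 10 CPM, the profiles nearest to that of Eln over the 9 libraries were those of Comp, a matrix protein of cartilage and tendon, Ndrg4 and Surf4. Their root mean square differences from Eln, on centred log2 CPM, were 0.17, 0.17 and 0.18. Those nearest to Fbn1 were Igfbp5, an IGF-binding protein, Ucma and Angptl7, at 0.18 for each. Comp averaged 1274 ± 278 CPM over the wt/wt libraries (SD, n = 5) and 1233 ± 400 CPM over the ko/ko libraries (SD, n = 4), and Angptl7 averaged 1076 ± 302 CPM (SD, n = 5) and 1535 ± 437 CPM (SD, n = 4).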

How the data were processed

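RNA of 9 sorted mouse skin samples was measured by sequencing of amplified polyadenylated RNA, per the labels' protocols. The authors deposited raw read counts per gene, 1 column per sample, with exon lengths. The submitters' processing notes list mm10, featureCounts 1.6.2 and GSNAP, and Ensembl release 87 appears in the table's name. For strand and multi-mapping, settings were not given in the sources used here. Of 49763 rows, 92 spike-in rows were left out, and symbols came from GENCODE M21 by identifier for 49326 of 49671 gene rows. Totals of 15601859 to 23200440 counts make 1 count worth 0.0431 to 0.0641 CPM.

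The whole table was fitted with edgeR 4.0.16 in R 4.3.3 (filterByExpr, TMM, glmQLFit with robust=TRUE, two-sided quasi-likelihood F test, Benjamini-Hochberg adjustment, threshold 0.05). Each SE was obtained by dividing the size of the log2 fold change by the root of F. The filter kept 18435 genes. The fit was also run on simulated counts, drawn independently for each gene. These lack the library pattern seen here, so they do not show how the fit behaves under it. Alternatives were other factors and filters, DESeq2 1.42.0, limma 3.58.1 voom with quality weights, robust=FALSE, removal of a loess trend on exon length (span 0.3), a fibroblast marker covariate and left-out libraries. Replicates were numbered by accession, and the numbers pair no samples.

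The 10 genes, the lists of 21 assembly and 10 elastolytic genes, the marker lists and the tests were chosen with earlier results of these data known. Named genes were the 10 members, the 8 assembly genes of smallest p, the 3 elastolytic genes of highest mean CPM, fixed markers and the 3 nearest profiles of Eln and Fbn1. Mmp14, Ctss, Fbn2, Mapk7, Gm30003 and Gm9913 were named after their values were seen. Ratios of gene pairs were also chosen after seeing the data. All-pair shares used log2 CPM with a prior count of 2.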

Additional observations from a re-analysis of the deposited data

Results flagged for a closer look

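In 96 groups of libraries a single value was compared with the rest of its group, and 6 stood apart; about 1 in 20 does so by chance, or 4.8. Wt/wt replicate 2 held 5 of them. There Efemp2 was 5.83 log2 CPM against 6.52 to 6.79 in the other wt/wt libraries, Loxl3 was 6.16 against 6.90 to 7.13, Adamtsl2 was 0.21 against 0.99 to 1.29, and Pdgfra, a fibroblast receptor, was 5.18 against 6.25 to 6.65. The basal keratinocyte markers summed to 3988 CPM in that library against 2056 to 2336. The leukocyte markers summed to 31.2 CPM in wt/wt replicate 1 against 4.07 to 7.03.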

How the results depend on the processing

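No paired analysis was possible because the labels give no replicate numbers. The 10 genes had 0 calls in either direction in the fit of all 9 libraries and in each alternative, except for 1 higher (Mfap5) with the fibroblast covariate and 1 lower (Fbln2) without the 3 libraries. Over 21 alternatives the sign was kept by Eln, Fbn1, Mfap2, Mfap4, Mfap5, Fbln2 and Efemp2 in 21, by Lox in 20, Fbln5 in 17 and Loxl1 in 14. The median log2 fold change ran from -0.26 (without ko/ko replicate 4) to 0.18 (without ko/ko replicate 1) when 1 library was left out. With library totals alone it was 0.06, while the median of all genes moved from -0.03 to 0.08.

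Over all genes, 1 was called higher and 0 lower in the fit of all 9 libraries. The counts were 4 and 0 with library totals, 26 and 2 without a filter, 438 and 192 with DESeq2, and 1217 and 585 with weighted voom. They were 0 and 0 with the length trend removed and 963 and 312 with the fibroblast covariate. Without wt/wt replicate 1 and ko/ko replicates 1 and 4, set apart as rich in reads of the Gm10800 group, they were 7 and 0. Without the 3 libraries that stood apart they were 1515 and 905, and with 1 library left out 0 to 12 and 0. The cause was not tested. Assembly genes called were 0 in the fit of all 9 libraries, 1 with DESeq2, weighted voom or without those 3 libraries, and 2 with the covariate. Elastolytic genes called were 0 in the fit of all 9 libraries, 2 with the covariate (Mmp14 and Ctss) and 1 without those 3 libraries (Ctsl).

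The summed RPKM of the 10 genes was 399.9 ± 141 (SD, n = 9), and 393 ± 122 with library totals.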
